A study of Mus musculus with 12 samples.

Results

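Transcripts of 10 genes that make, convert or split NAD were followed in mouse bone marrow cells sorted as monocytic myeloid-derived suppressor cells (M-MDSCs). The genes are Nampt, Nmnat1, Nadsyn1, Naprt1 and Qprt, which make NAD, Nadk and Nnt, which pass it on to NADP or exchange it with NADH, and Cd38, Bst1 and Nt5e, whose products sit on the cell surface and split NAD or the molecules around it. They were chosen by name, and all 10 were found among the 23420 genes of the count table. M-MDSCs are described as immature monocyte-like cells, and the study sorted them as CD11b+ cells without Ly6G and with high Ly6C. RNA was sequenced from 12 male C57BL/6JNIA mice without any treatment or engineered allele, of which 6 were young (6 months) and 6 aged (24 months), each giving its own library. The study asked how age alters these cells as precursors of osteoclasts, and the 2 ages are set side by side here for the transcripts of NAD metabolism.

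NAD carries electrons in energy metabolism and is also consumed by enzymes that cleave it. Most cells rebuild it by salvage, in which NAMPT turns nicotinamide into nicotinamide mononucleotide (NMN) and NMNAT enzymes turn NMN into NAD. Other routes start from nicotinic acid through NAPRT or from tryptophan through QPRT, and both end at NAD synthetase, the product of Nadsyn1. CD38 and its neighbour BST1 (CD157) face the outside of the cell and cleave NAD to nicotinamide and ADP-ribose or its cyclic form, and CD38 also degrades NMN. NT5E (CD73) releases phosphate from AMP and from NMN at the cell surface. CD38 is known from several tissues as a major consumer of NAD in old age.

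Libraries held 4613239 to 9079237 counted fragments in young mice and 8737941 to 16300374 in aged mice, and levels are given as CPM, counts scaled to a library of 1000000 fragments with TMM factors. Itgam, which encodes CD11b, and Ly6c2 were high in every mouse (2660 to 3543 and 367 to 799 CPM). The 9 neutrophil genes of a marker list summed to 82730 to 129261 CPM in young and 130729 to 153762 CPM in aged mice, with 5 of 9 called higher in aged mice, although the sort was set against Ly6G. The 8 monocyte genes summed to 4715 to 5136 CPM in young and 4309 to 5251 CPM in aged mice, with 1 called higher and 1 lower. Neutrophil transcripts thus outweighed those of monocytes in every library, and of the monocyte genes Csf1r lay at 93.1 to 205 CPM, Ccr2 at 5.03 to 62.0 CPM, F13a1 at 2.57 to 44.0 CPM and Cx3cr1 at 0.43 to 15.99 CPM over the 12 mice. The values that follow belong to the sorted population as a whole and cannot be assigned to its monocytic cells. The 8 genes of resident macrophages, 7 of them called higher, summed to 56.7 to 76.8 CPM in young and 69.5 to 789 CPM in aged mice, and the 8 genes of dividing cells, 2 of them called lower, to 682 to 1303 and 372 to 839 CPM. Some scarcer lists did not overlap between the ages, with 4 primary granule genes at 3.13 to 8.46 CPM in young and 9.06 to 16.5 CPM in aged mice, 4 endothelial genes at 3.12 to 7.50 and 8.97 to 17.5 CPM, and 7 dendritic cell genes at 4.74 to 9.37 and 1.497 to 4.66 CPM. Over all genes tested, 22.4% were called higher and 23% lower in aged mice. The ages did not overlap for 21.8% of them, a share of single genes and not of sums. In RNA of a whole sorted population, a change in the mix of cells and a change of RNA per cell cannot be told apart. The alignment files were numbered 11 to 16 for the young and from 17 upwards for the aged mice, so a change of preparation after number 16 and age cannot be told apart.

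The 250 bases before the transcription start are shown for 4 of the 10 genes, for Cd38 as the largest rise, for Qprt and Nt5e as the largest falls and for Nampt as the main salvage gene. They come from RefSeq on GRCm38.p6, the assembly called mm10 in the count table, and 7 of the 10 genes had an entry. Capitals mark matches to the motifs searched.
Cd38 (chr5:43868559-43868808, plus strand): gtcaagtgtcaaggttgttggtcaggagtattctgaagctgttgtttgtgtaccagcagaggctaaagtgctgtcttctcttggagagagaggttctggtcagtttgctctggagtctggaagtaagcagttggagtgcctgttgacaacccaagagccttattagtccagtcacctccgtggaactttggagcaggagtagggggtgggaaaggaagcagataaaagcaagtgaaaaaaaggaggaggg
Nampt (chr12:32820085-32820334, plus strand): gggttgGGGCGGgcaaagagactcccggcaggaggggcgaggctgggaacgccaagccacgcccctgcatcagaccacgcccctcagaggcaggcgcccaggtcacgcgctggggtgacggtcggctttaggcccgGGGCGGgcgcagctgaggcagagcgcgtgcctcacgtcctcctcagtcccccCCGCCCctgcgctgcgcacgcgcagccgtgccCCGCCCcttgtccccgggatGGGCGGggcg
Qprt (chr7:127122030-127122279, minus strand): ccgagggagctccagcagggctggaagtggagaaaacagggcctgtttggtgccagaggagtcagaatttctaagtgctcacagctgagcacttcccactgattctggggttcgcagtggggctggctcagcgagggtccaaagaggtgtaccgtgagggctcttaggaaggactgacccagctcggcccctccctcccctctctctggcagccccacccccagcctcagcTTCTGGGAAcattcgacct
Nt5e (chr9:88327359-88327608, plus strand): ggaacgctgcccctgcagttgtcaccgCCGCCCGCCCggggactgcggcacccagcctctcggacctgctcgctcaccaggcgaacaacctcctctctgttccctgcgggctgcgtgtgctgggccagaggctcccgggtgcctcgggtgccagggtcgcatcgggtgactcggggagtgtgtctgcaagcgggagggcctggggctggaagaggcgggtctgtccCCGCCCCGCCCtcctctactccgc
The motifs, searched on both strands, were the GC box (GGGCGG), the E-box (CACGTG), the AP-1 motif (TGANTCA), the STAT motif (TTCNNNGAA), the TATA box (TATAAA), the CCAAT box, the PU.1 motif (GAGGAA) and the motif of C/EBP factors (TTGCNNAA). Nampt held 5 GC boxes and Nt5e held 4, which overlap in pairs, and 32.7% of the 32851 windows in the table held at least 1. Qprt held 1 match to the STAT motif, 19 bases before the start, which 7.02% of all windows held. Cd38 held no match to any of the 8, which says only that these letters are not in this window. The CpG content set them apart more plainly, with 1 CG in the window of Cd38 (fewer in 7.87% of all windows), 6 in that of Qprt, 21 in that of Nt5e and 27 in that of Nampt, against a median of 6.

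The test could be made for 8 of the 10 genes, and 7 of these differed between the ages by edgeR's quasi-likelihood test with Benjamini-Hochberg adjustment over 9742 genes at a threshold of 0.05. Cd38, Bst1, Nampt and Nadk were higher in aged mice, Qprt, Nt5e and Nnt were lower, and Nadsyn1 did not pass. Over all genes tested, 45.4% were called, 22.4% higher and 23% lower, so a call alone is common in this comparison. The median log2 fold change of the 8 genes was -0.04, beside 0.0062 over all genes. For 5 of the 8, Cd38, Bst1, Nadk, Nt5e and Nnt, the CPM of the ages did not overlap, which held for 21.8% of all genes tested. No exon of the other genes in the table overlapped an exon of these 10.

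**Figure D1:**
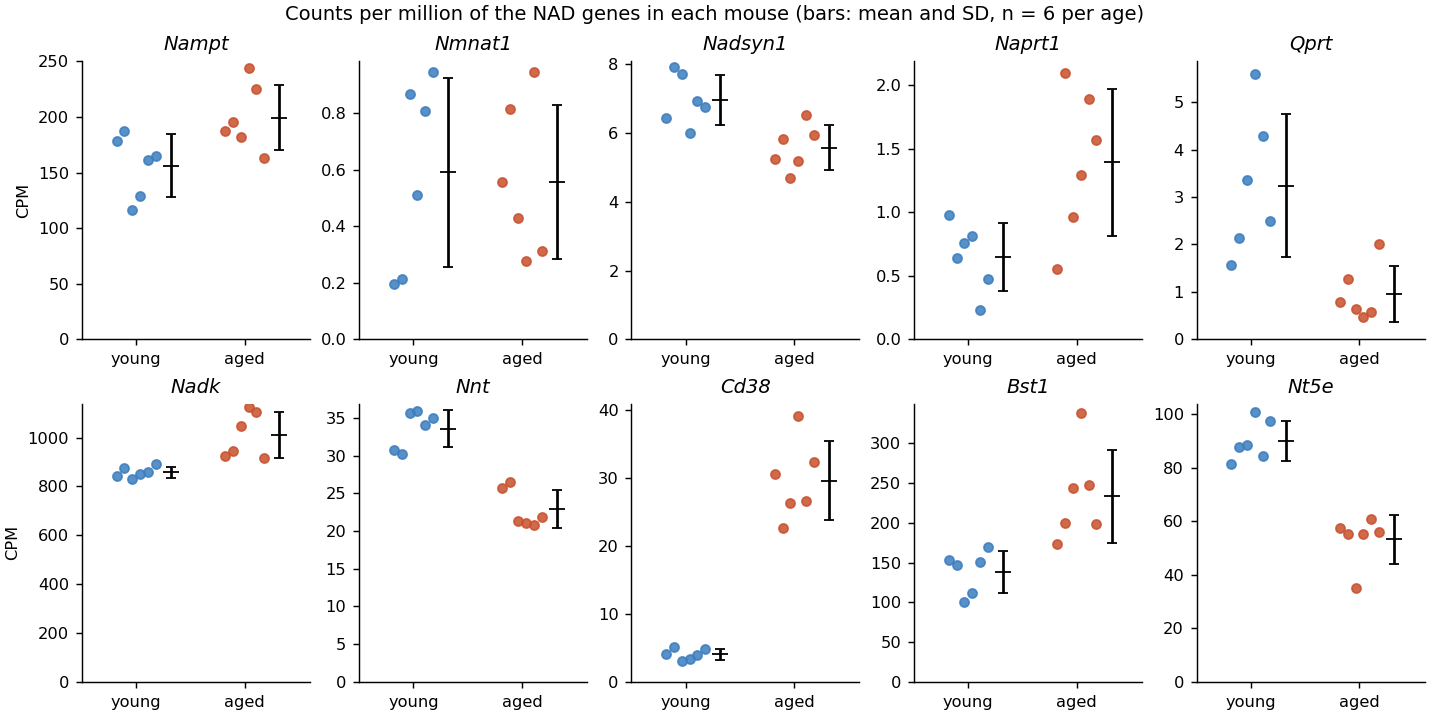
CPM of each gene (vertical axes, each from 0) in 6 young (blue) and 6 aged (orange) mice, with mean and SD beside the points. Cd38 lay at 3.15 to 5.14 CPM in young and at 22.6 to 39.2 CPM in aged mice, while the ages overlapped for all 5 makers of NAD.

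Among the makers of NAD, the salvage gene Nampt was by far the most abundant and was slightly higher in aged mice, while Qprt, on the route from tryptophan, fell. Nampt, which encodes the rate-limiting enzyme of salvage, ranged from 116 to 188 CPM with a median of 163 in young mice and from 163 to 244 CPM with a median of 191 in aged mice. Young mice 5 and 6 were lowest and aged mice 5 and 6 highest, and aged mice 1, 4 and 7 lay within the range of the young. The mean was 156 ± 28.2 CPM in young and 199 ± 29.6 CPM in aged mice (SD, n = 6 each), a log2 fold change of 0.36 with a SE of 0.12 (edgeR adjusted p = 0.0273). This call rested on few mice. Without young mouse 5 or 6 the log2 fold change was 0.28 or 0.30 and the edgeR adjusted p 0.0583 or 0.0629, and without aged mouse 5 or 6 it was 0.29 or 0.32 with an adjusted p of 0.0629 or 0.0581. With only the libraries numbered 11 to 19, which keep 3 aged mice, it was 0.27 (edgeR adjusted p = 0.129). The summed neutrophil genes were also lowest in young mice 5 and 6 (82730 and 83731 CPM) and highest in aged mice 5 and 6 (153762 and 146569 CPM), and their part in the difference was not tested.

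Qprt encodes the enzyme that turns quinolinic acid into nicotinic acid mononucleotide. It was at 1.56, 2.14, 3.36, 5.60, 4.28 and 2.49 CPM in young mice 1, 2, 5, 6, 9 and 10, and at 0.78, 1.28, 0.64, 0.46, 0.57 and 2.0 CPM in aged mice 1, 2, 4, 5, 6 and 7. Every aged mouse but mouse 7 lay below every young mouse, on 5 to 32 counts in aged and 8 to 55 counts in young mice. The log2 fold change was -1.74 with a SE of 0.38 (edgeR adjusted p = 0.00202), a 3.33-fold lower level, and it ranged from -2.17 without aged mouse 7 to -1.51 among the fits that left out 1 mouse. Aged mouse 7 also had the highest sum of the 8 genes of dividing cells among the aged (839 CPM, against 372 to 555 CPM in the others). It had the highest sum of the 8 monocyte genes (5251 CPM), which is largely Itgam, and among the aged the most F13a1 and Cx3cr1 (44.0 and 15.4 CPM). Ccr2, however, was highest in aged mouse 2, at 62.0 CPM against 52.4 CPM in aged mouse 7. F13a1 was also higher in aged mice 1 and 2 (18.6 and 42.4 CPM) than in aged mice 4, 5 and 6 (2.57, 11.1 and 7.48 CPM), and highest among the young in mice 5, 6 and 9 (39.2, 38.0 and 28.6 CPM), as was Qprt. The part of dividing cells or monocytes in the level of Qprt was not tested. Of the 8 genes of dividing cells, Mki67 and Top2a were called lower in aged mice (log2 fold changes of -2.01 and -0.62), and the other 6 were not called and lay between -0.12 and 0.17.

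Nadsyn1 encodes the synthetase that closes the routes from tryptophan and nicotinic acid. Its level was 6.01 to 7.93 CPM with a median of 6.84 in young and 4.70 to 6.53 CPM with a median of 5.53 in aged mice. The ages overlapped, and the log2 fold change of -0.31 with a SE of 0.13 did not pass (edgeR adjusted p = 0.0523). It lay at the threshold, since leaving out young mouse 6 or aged mouse 6 gave an edgeR adjusted p of 0.0455 or 0.0389 with a log2 fold change of -0.36 in both fits.

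Nmnat1 and Naprt1 had too few counts for the test. Nmnat1, the NMN adenylyltransferase of the nucleus, had 1 to 8 counts in young and 3 to 10 counts in aged mice. Naprt1, which starts the route from nicotinic acid, had 2 to 8 counts in young and 5 to 25 counts in aged mice. In an edgeR fit without a filter on low counts, Nmnat1 had a log2 fold change of -0.20 (adjusted p = 0.771) and Naprt1 one of 1.11 with a SE of 0.40 (adjusted p = 0.0425), with overlapping ages for both. For Nmnat1 no difference was detected at this depth, with a SE of 0.46.

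The genes that hand NAD on to other pools moved in opposite directions. Nadk encodes the kinase that makes NADP from NAD in the cytosol. It lay at 829 to 892 CPM with a median of 856 in young and at 915 to 1124 CPM with a median of 997 in aged mice. The ages did not overlap, but the gap was narrow, and the log2 fold change was 0.24 with a SE of 0.069 (edgeR adjusted p = 0.0119), but 0.18 and not called with the libraries numbered 11 to 19 alone (adjusted p = 0.0751). Nnt encodes the transhydrogenase of the inner mitochondrial membrane, which uses NADH to reduce NADP. It was at 30.2 to 36.0 CPM with a median of 34.5 in young and at 20.8 to 26.5 CPM with a median of 21.6 in aged mice. Every aged mouse was below every young mouse, with a log2 fold change of -0.56 and a SE of 0.087 (edgeR adjusted p = 2.14e-04). A deletion within Nnt is known in C57BL/6J mice, and counts per gene do not show which exons the fragments came from.

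Of the genes of the cell surface, Cd38 and Bst1 were higher and Nt5e was lower in aged mice, and Cd38 had the largest fold change of the 8 tested genes. Cd38 was at 4.10, 5.14, 3.15, 3.36, 3.93 and 4.85 CPM in young mice 1, 2, 5, 6, 9 and 10, and at 30.7, 22.6, 26.4, 39.2, 26.7 and 32.4 CPM in aged mice 1, 2, 4, 5, 6 and 7. The lowest aged mouse stood far above the highest young mouse, on 194 to 517 counts against 21 to 41 counts. The means were 4.09 ± 0.79 CPM and 29.7 ± 5.80 CPM (SD, n = 6 each), a 7.38-fold rise with a log2 fold change of 2.88 and a SE of 0.16 (edgeR adjusted p = 8.18e-08). By unadjusted p it ranked 1 of the 9742 genes tested, and by size of fold change 12. CD38 is also found on other immune cells, B cells among them. The sort for CD11b+Ly6G-Ly6Chi cells was not meant to keep B cells. It was also set against Ly6G, yet neutrophil transcripts were abundant in every library. The 8 B cell genes summed to 2.14 to 4.02 CPM in young and 2.40 to 12.6 CPM in aged mice. Only Cd79b was tested, with a log2 fold change of 1.10 and no call (edgeR adjusted p = 0.0568). The 6 plasma cell genes summed to 109 to 160 CPM and 134 to 237 CPM, with 2 tested and 1 called higher. The called gene, Xbp1, made up most of that sum, with means of 113 and 140 CPM, and Igj was not called. Sdc1, Mzb1, Prdm1 and Tnfrsf17 were not tested, with means of up to 0.62 CPM in young and up to 2.34 CPM in aged mice. Aged mice 1 and 2 had the highest sums of B cell, plasma cell and resident macrophage genes. Without both, an alternative chosen after seeing the data, the log2 fold change of Cd38 was 2.96 (edgeR adjusted p = 8.72e-07), and the other 6 calls among the NAD genes held as well. The macrophage genes in the other 4 aged mice summed to 69.5 to 173 CPM, and the part of admixed cells in the level of Cd38 was not tested.

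Bst1 encodes CD157, which cleaves NAD less readily than CD38. It was at 153, 147, 99.9, 112, 150 and 169 CPM in young mice 1, 2, 5, 6, 9 and 10, and at 174, 200, 243, 338, 248 and 198 CPM in aged mice 1, 2, 4, 5, 6 and 7. The ages did not overlap, but aged mouse 1 was close to young mouse 10. The log2 fold change was 0.76 with a SE of 0.16 (edgeR adjusted p = 0.00154), a 1.69-fold rise. The highest aged and the lowest young mouse were the same mice that held the highest and lowest sums of neutrophil genes (153762 CPM in aged mouse 5 and 82730 CPM in young mouse 5), whose part in the rise was not tested.

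Nt5e, which encodes CD73, fell. Its levels were 81.3, 87.7, 88.6, 100.6, 84.4 and 97.3 CPM in young mice 1, 2, 5, 6, 9 and 10, and 57.3, 55.4, 35.2, 55.2, 61.0 and 55.9 CPM in aged mice 1, 2, 4, 5, 6 and 7. All aged mice were below all young mice, and aged mouse 4 was lowest. The log2 fold change was -0.76 with a SE of 0.11 (edgeR adjusted p = 1.34e-04), a 1.69-fold lower level.

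**Figure D2:**
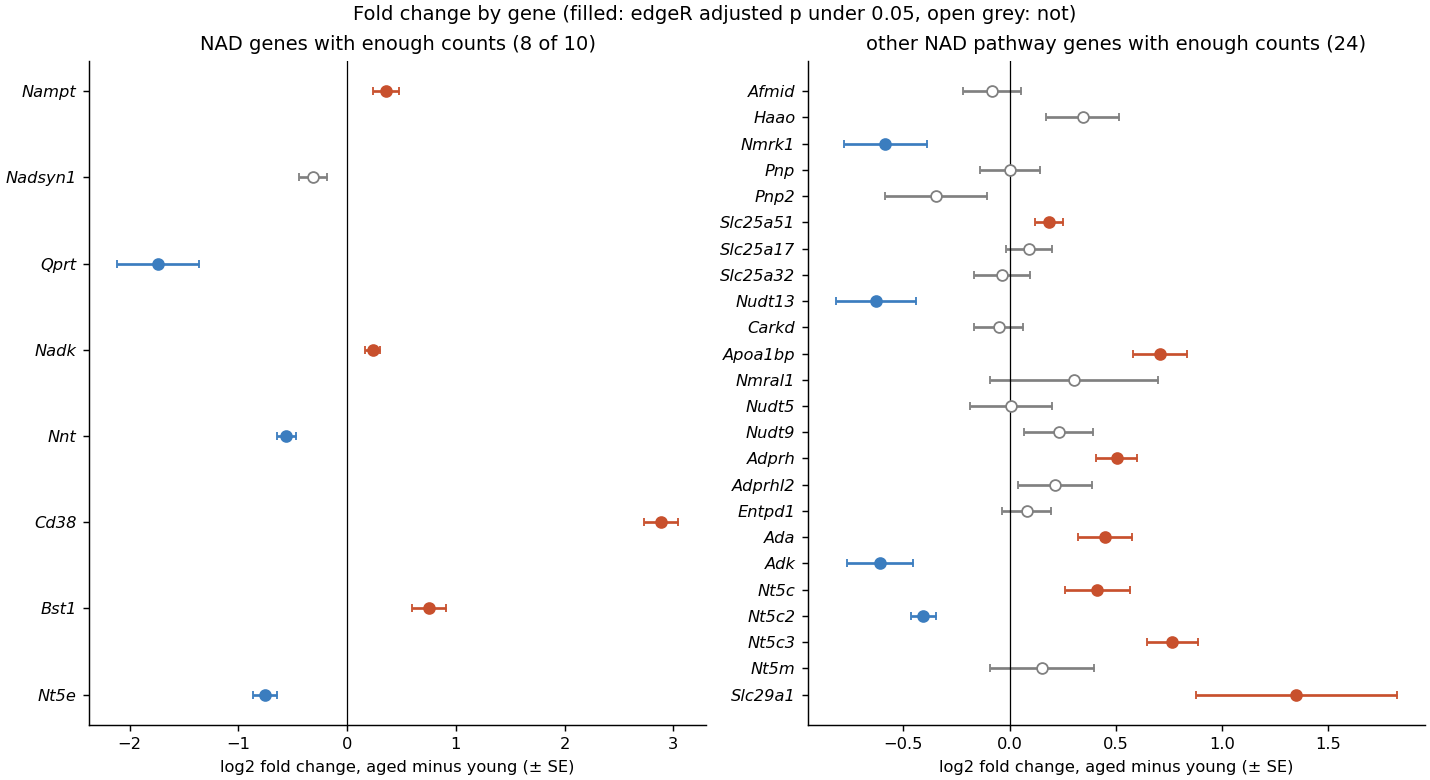
Log2 fold change of aged over young mice with SE (horizontal axes) for the 8 tested NAD genes (left) and for the 24 tested genes of the wider pathway (right). Filled orange and blue points were called higher and lower by edgeR and open grey points were not called; Cd38 stands at 2.88, apart from all others.

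Levels were compared between genes per kilobase of exon. In young mice Nadk was highest, at 277 CPM per kb, followed by Bst1 at 59.3, Nampt at 34.3, Nt5e at 25.1, Nnt at 7.08, Qprt at 2.71, Nadsyn1 at 2.65, Cd38 at 1.37, Nmnat1 at 0.62 and Naprt1 at 0.34 CPM per kb. In aged mice the order began with Nadk at 326, Bst1 at 99.97 and Nampt at 43.9 CPM per kb, and Cd38 moved up to 9.90 CPM per kb, behind Nt5e at 14.9 and ahead of Nnt at 4.83 CPM per kb. The lower ranks in aged mice were Nadsyn1 at 2.12, Qprt at 0.80, Naprt1 at 0.74 and Nmnat1 at 0.58 CPM per kb. Within single mice the higher of 2 neighbours in this order was above the lower in all 6 mice of the age, except for Qprt over Nadsyn1 (2 of 6) and Nmnat1 over Naprt1 (4 of 6) in young mice and for Qprt over Naprt1 (3 of 6) and Naprt1 over Nmnat1 (5 of 6) in aged mice, where the order was not resolved. Bst1 was more abundant than Cd38 in every mouse of both ages.

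The balance of the makers against the ectoenzymes was taken in each mouse as the log2 ratio of the summed CPM per kb of Nampt, Nmnat1, Nadsyn1, Naprt1 and Qprt to that of Cd38 and Bst1. The makers summed to 32.5 to 46.7 CPM per kb in young and 41.0 to 56.9 CPM per kb in aged mice, and the pair of ectoenzymes to 43.8 to 74.0 and 84.7 to 158 CPM per kb. The makers overlapped between the ages and the ectoenzymes did not. The log2 balance was -0.61, -0.47, -0.43, -0.44, -0.62 and -0.81 in young mice 1, 2, 5, 6, 9 and 10, and -0.92, -0.95, -1.38, -1.47, -1.08 and -1.22 in aged mice 1, 2, 4, 5, 6 and 7. Every aged mouse was below every young mouse, with means of -0.56 ± 0.15 in young and -1.17 ± 0.23 in aged mice (SD, n = 6 each). No test was made of this sum, since the genes in it were chosen with results of these data known. In linear terms the makers reached 0.68 of the ectoenzymes in young and 0.45 in aged mice. Nampt made up 84.0% ± 5.0 of the makers in young and 91.0% ± 2.39 in aged mice (SD, n = 6 each), so the numerator is largely this gene. With Bst1 as the only ectoenzyme the difference between the ages was -0.50 and the ages overlapped, and with Nt5e added to the pair it was -0.28 and they overlapped as well.

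**Figure D3:**
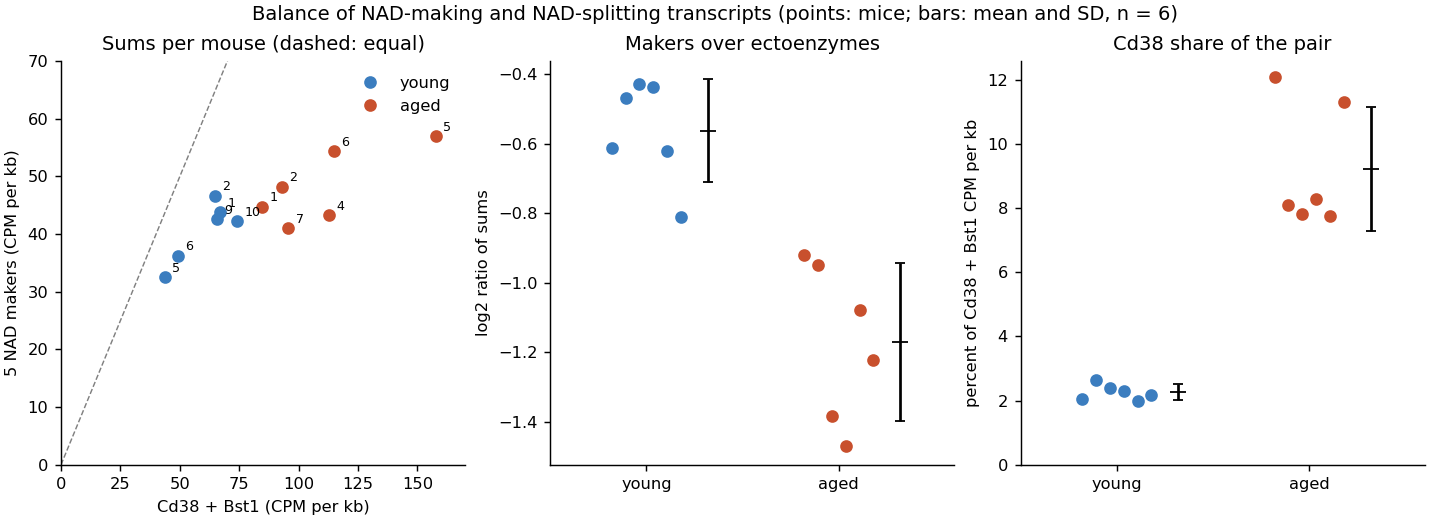
Left, summed CPM per kb of the 5 makers (vertical) against Cd38 plus Bst1 (horizontal) in each mouse, labelled by mouse number, with equal sums on the dashed line. Middle and right, the log2 ratio of these sums and the percentage of Cd38 in the pair, with mean and SD; aged mice lay from -1.47 to -0.92 and young mice from -0.81 to -0.43 on the log2 ratio.

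Within the pair the share of Cd38 rose. Cd38 made up 2.0 to 2.66% of the CPM per kb of Cd38 and Bst1 in young mice (mean 2.26%) and 7.75 to 12.1% in aged mice (mean 9.22%). Aged mice 1 and 7 had the largest shares, at 12.1% and 11.3%, and the other aged mice lay between 7.75% and 8.29%. The log2 ratio of Cd38 to Bst1 counts was -5.06 ± 0.16 in young and -2.96 ± 0.32 in aged mice (SD, n = 6 each), a difference of 2.09. Both genes were chosen with results of these data known, so the test describes these mice and is not independent support. By an exact two-sided permutation test over all regroupings of the 12 mice the p was 0.00216, the smallest this design allows. A ratio within each library does not depend on its scaling.

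Cd38 and Bst1 are neighbours on chromosome 5, on the same strand. On mm10, Bst1 spans chr5:43818893-43843468 and Cd38 chr5:43868827-43912374, with 25358 bases between them. Within 1000000 bases of the pair 5 other genes were tested and 3 were called, all lower in aged mice. Cpeb2, which encodes a regulator of translation, had a log2 fold change of -0.62 (edgeR adjusted p = 6.34e-05), Prom1, which encodes the membrane protein CD133, -0.46 (adjusted p = 0.00894) and Tapt1 -0.16 (adjusted p = 0.0429). Fbxl5, a sensor of iron and the nearest tested gene on the side of Bst1, had 0.29 (edgeR adjusted p = 0.0606), and Gm7854 had -0.29 (adjusted p = 0.149). Over all genes tested, 22.4% were called higher and 23% lower. With so few genes in the window, neither 0 called higher nor 3 called lower beside the pair is set apart from these shares.

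**Figure D4:**
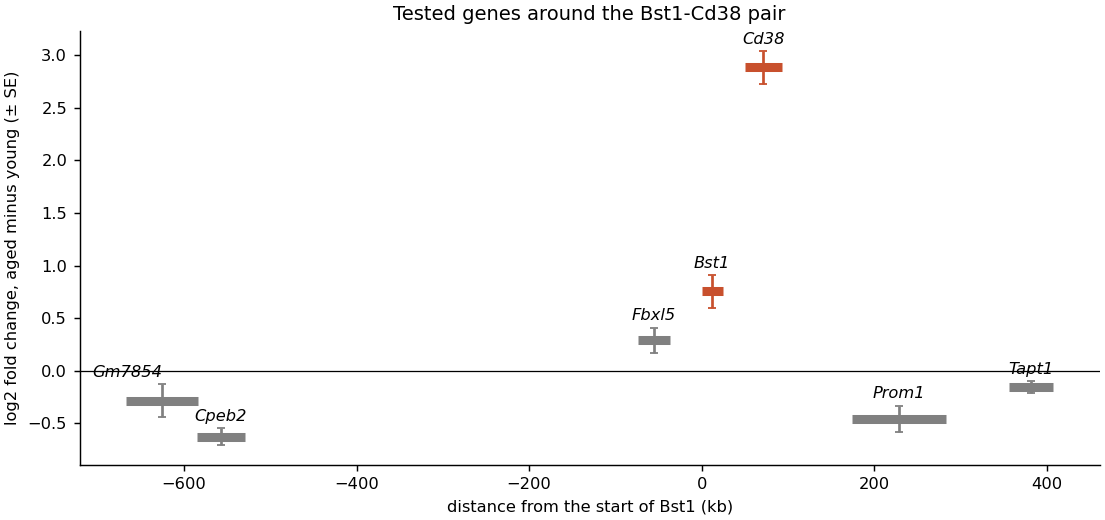
Log2 fold change of aged over young mice with SE (vertical axis) for the 7 tested genes around the pair, against distance from the start of Bst1 in kb; each horizontal bar spans the gene. Cd38 and Bst1 (orange) stand at 2.88 and 0.76, and the 5 other genes (grey) lie between -0.62 and 0.29.

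The genes most like each of Cd38, Bst1 and Nampt in log2 CPM over the 12 mice were taken as the 5 with the highest Pearson r. For Bst1 these were Efhd2, Gnai3, Mmp25, Alox5ap and Ppp2ca, with r of 0.981 to 0.995, and within the aged and within the young mice r was still at least 0.941. For Nampt they were Asah1, Rab32, Litaf, Msra and Rnf11 (r of 0.968 to 0.978, within an age at least 0.909). For Cd38 they were Fam96a, Pycard, Asnsd1, Ube2l6 and Cib2 (r of 0.948 to 0.957), with r of 0.486 to 0.888 within the young and -0.036 to 0.585 within the aged mice. The likeness for Bst1 and Nampt held between mice of both ages, and that for Cd38 was lower within each age than over all 12 mice. These values describe the same 12 libraries and were picked as the highest of 9742 genes.

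The wider NAD pathway was read from a list of 59 other genes, of which 55 were in the table and 24 could be tested. Of the 24, 7 were higher in aged mice, 4 were lower and 13 did not pass by edgeR, a share of calls close to that over all genes. The median log2 fold change was 0.12, beside 0.0062 over all genes, and 19 of the 55 had at most 3 counts in every mouse. Leaving out 1 mouse at a time gave 4 to 8 higher calls, with 4 each without young mouse 1 and without aged mouse 1.

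On the route from tryptophan only Afmid and Haao of 11 genes could be tested, and neither was called. Afmid, the kynurenine formamidase, had a log2 fold change of -0.08 (edgeR adjusted p = 0.639), and Haao, which makes the precursor of quinolinic acid, 0.34 (adjusted p = 0.112), with 0.46 without aged mouse 7 (adjusted p = 0.0156) and 0.043 after a correction for gene length (adjusted p = 0.867). With all 12 mice, Qprt was the only tested gene on this route with a call by edgeR.

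In salvage and precursor handling 6 of 13 genes were tested. Nmrk1, the kinase that makes NMN from nicotinamide riboside, fell from 7.12 ± 1.89 to 4.76 ± 1.03 CPM (SD, n = 6 each), with a log2 fold change of -0.58 (edgeR adjusted p = 0.0229). Slc25a51, which encodes the carrier of NAD into mitochondria, was slightly higher, at 66.4 ± 4.24 against 58.4 ± 3.61 CPM, with a log2 fold change of 0.19 (edgeR adjusted p = 0.0322). Both calls lay near the threshold. Nmrk1 lost its call without young mouse 5, young mouse 6 or aged mouse 2 (log2 fold changes of -0.50, -0.47 and -0.50, edgeR adjusted p of 0.0624, 0.069 and 0.0533), and Slc25a51 passed in 4 of 12 fits that left out 1 mouse, with 0.31 after a correction for gene length (adjusted p = 0.00722) and 0.10, not called, without TMM factors (adjusted p = 0.212).

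Among genes that handle NADP and NADH, Apoa1bp, which encodes the epimerase that repairs hydrated NADH, rose from 10.5 ± 1.63 to 17.05 ± 2.56 CPM without overlap of the ages (log2 fold change 0.71, edgeR adjusted p = 6.37e-04). After the correction for gene length this was 0.32 (adjusted p = 0.0438). Nudt13, a pyrophosphatase of NADH, fell from 3.24 ± 0.70 to 2.09 ± 0.30 CPM (log2 fold change -0.63, edgeR adjusted p = 0.0136). Among other genes that split NAD or act on ADP-ribose, Adprh rose. It encodes a hydrolase that removes ADP-ribose from arginine, and it lay at 76.9 to 113 CPM in young and 123 to 162 CPM in aged mice (log2 fold change 0.50, edgeR adjusted p = 9.15e-04), with 0.31 after the correction for gene length (adjusted p = 0.0156).

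Around Nt5e, 8 of 12 nucleotide genes were tested, with 4 higher and 2 lower, beside 22.4% higher and 23% lower over all genes tested. Nt5c3, a cytosolic nucleotidase for pyrimidine nucleotides, rose from 46.3 ± 8.38 to 78.5 ± 10.1 CPM without overlap (log2 fold change 0.77, edgeR adjusted p = 2.20e-04), and Ada, the adenosine deaminase, from 27.7 ± 4.48 to 37.8 ± 6.50 CPM (0.45, adjusted p = 0.00982), which was 0.29 and not called after a correction for gene length (adjusted p = 0.0891). Nt5c2, a cytosolic purine nucleotidase, fell from 116 ± 6.12 to 87.2 ± 4.78 CPM (log2 fold change -0.41, edgeR adjusted p = 1.38e-04), and Adk, the adenosine kinase, from 18.1 ± 1.22 to 11.9 ± 3.33 CPM (-0.61, adjusted p = 0.00556), neither with overlap. Genes on the 2 fates of adenosine, deamination by Ada and phosphorylation by Adk, thus moved in opposite directions. Entpd1 (CD39), which makes the AMP that CD73 uses, was at 203 ± 32.1 CPM in young and 215 ± 32.3 CPM in aged mice (SD, n = 6 each) and was not called (edgeR adjusted p = 0.591).

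Slc29a1, a nucleoside transporter, had the largest fold change of the 24 tested genes and was highest by far in 1 aged mouse. It was at 1.17 to 4.72 CPM in young mice and at 19.3 CPM in aged mouse 1, beside 2.86 to 6.29 CPM in the other aged mice. The log2 fold change of 1.35 (edgeR adjusted p = 0.0292) became 0.68 without aged mouse 1 (adjusted p = 0.0708), the mouse with the highest sums of macrophage and stromal genes (789 and 96.6 CPM). The call was also lost without young mouse 1, 9 or 10 (log2 fold changes of 1.23, 1.29 and 1.27, edgeR adjusted p of 0.0576, 0.0547 and 0.0556) and by limma-voom (1.03, adjusted p = 0.0812). The part of those cells in it was not tested. Nt5c, another nucleotidase, had a log2 fold change of 0.41 (edgeR adjusted p = 0.036), passed in 4 of 12 fits that left out 1 mouse, was at 0.33 and not called without TMM factors (adjusted p = 0.113), and was at -0.0098 after the correction for gene length (adjusted p = 0.969).

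**Figure D5:**
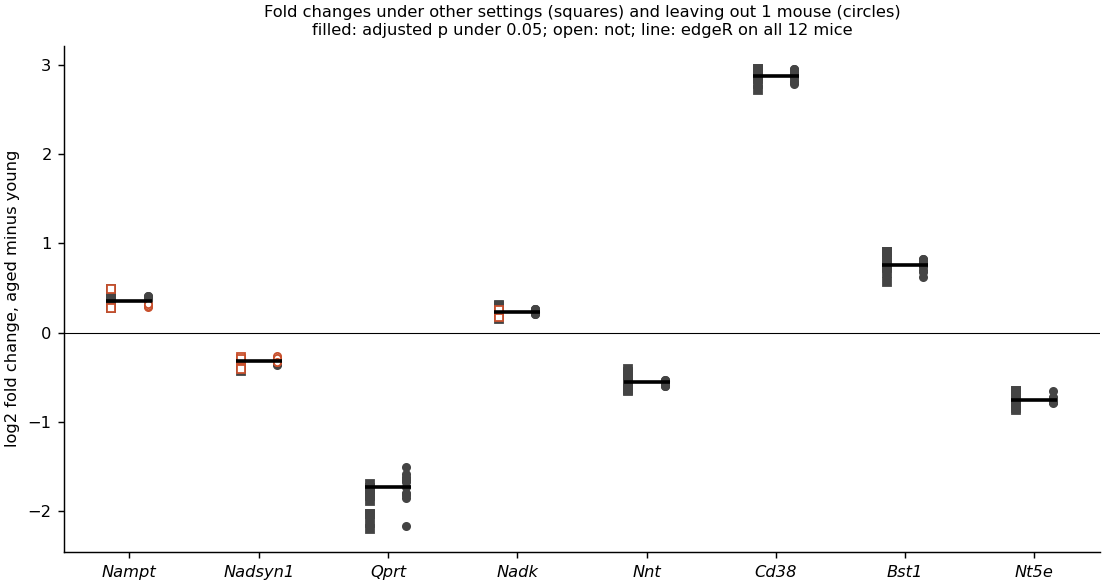
Log2 fold change of the 8 tested genes (vertical axis) with all 12 mice (line), under 13 other settings (squares, 11 for Qprt) and leaving out 1 mouse at a time (circles), open where the adjusted p was not under 0.05. Cd38 stayed between 2.72 and 2.96 and no gene changed sign, while Nampt, Nadk and Nadsyn1 passed in some settings and not in others.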

How the data were processed

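M-MDSCs were sorted by the authors from bone marrow, and paired reads of stranded libraries were sequenced for each of 12 mice. The table deposited gives raw counts, as fragments per gene, which the authors made with featureCounts 2.0.0 over exons of a UCSC annotation of mm10, reverse-stranded, with both ends aligned and a mapping quality of at least 60, per the file headers. The aligner is not given in the sources used here. Ages and mouse numbers were taken from the sample titles, and no column was left out. Totals were 4613239 to 16300374 fragments, so that genes of few counts are imprecise.

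Counts were fitted here with edgeR 4.0.16 in R 4.3.3, with filterByExpr, TMM factors, the quasi-likelihood test without covariates and Benjamini-Hochberg adjustment over 9742 genes. The code of the fit was checked on counts simulated from its own model. Such counts hold no shift with gene length or cell mix. CPM are counts over TMM-scaled totals, and CPM per kb divide by the deposited exon length. The ratio of Cd38 to Bst1 used counts with 0.5 added. The members and the gene lists were chosen with earlier results of these data known. All 10 NAD genes are named. In each role of the wider list the 3 highest and 3 lowest fold changes among called genes are named, with all tested genes within 1000000 bases of Cd38 and Bst1 and the 5 genes most like Cd38, Bst1 and Nampt. Afmid, Haao, Entpd1, Nt5c and the marker genes were named outside this rule, after their values were seen. Mouse numbers 1, 2, 5 and 6 occur at both ages but belong to different animals. Alternatives were DESeq2 1.42.0, limma-voom (limma 3.58.1), other scalings and filters, a correction for gene length, thinning to 4613239 fragments, the libraries numbered 11 to 19 alone, and leaving out mice.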

Additional observations from a re-analysis of the deposited data

Results flagged for a closer look

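Nt5e in aged mice had 1 mouse far from the others. Aged mouse 4 was at 35.2 CPM and the next lowest aged mouse at 55.2 CPM, a gap of 0.775 of the range of the 6 mice and above Dixon's 95% critical value for 6 samples. It was the 1 of 24 groups looked at that passed, and chance alone flags about 1 in 20. The same mouse had the lowest Ccr2 (5.03 CPM, against 13.3 to 62.0 CPM in the other aged mice), F13a1 (2.57 against 7.48 to 44.0 CPM) and Cx3cr1 (0.43 against 1.89 to 15.4 CPM), all genes of monocytes, and their part in the value of Nt5e was not tested. Without aged mouse 4, Nt5e still fell by 0.66 on the log2 scale.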

How the results depend on the processing

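Over 200 refits of single NAD genes, the direction was kept in all, 187 stayed on the same side of the threshold, 8 lost the call and 5 gained it. Cd38, Bst1, Nt5e and Nnt passed in all 25 other fits and Qprt in all 23 that kept it. Leaving out 1 mouse gave 3 to 4 higher and 3 to 4 lower calls among the NAD genes, 4 to 8 higher and 3 to 4 lower in the wider list, a balance of -0.66 to -0.55 and a log2 ratio of Cd38 to Bst1 of 2.0 to 2.14. With the libraries numbered 11 to 19 alone, which keep 3 aged mice, 2 NAD genes were called higher, since Nampt (0.27, adjusted p = 0.129) and Nadk (0.18, adjusted p = 0.0751) did not pass, and the cause was not tested. The balance was -0.28 with Nt5e added to the ectoenzymes, -1.92 with each gene weighted equally, -1.43 without Nampt and -2.62 with Cd38 as the only ectoenzyme, as these sums hold other genes.

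Without aged mice 1 and 7 together, an alternative also added after seeing the data, 4 NAD genes were higher and 3 lower, with a balance of -0.66 and a log2 ratio of Cd38 to Bst1 of 1.89. With the replicate block, on the 8 mice of shared numbers, 2 NAD genes were called higher, against 4 in the same mice without it. Nampt and Nadk lost their calls, with log2 fold changes of 0.49 and 0.26 (edgeR adjusted p of 0.0719 and 0.1). Without the block these were 0.48 and 0.26. Same-numbered mice did not deviate together (correlations of -0.246 to -0.0655), so the numbers pair nothing here. Without TMM factors 37.8% of calls over all genes were higher, against 49.4% with them, and Nadsyn1 passed (adjusted p = 0.0203), as it did with at least 10 counts in every mouse (0.0472) and after thinning (0.0333). Without the 2 mice farthest from the median, r of Cd38 with Bst1 in aged mice became -0.85, of Cd38 with Nampt in aged mice -0.68 and of Bst1 with Nampt in young mice -0.50. Counts limited Nmnat1, Naprt1 and Qprt, at 1 to 10, 2 to 25 and 5 to 55 per mouse.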

Other observations

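Whether Cd38, Bst1 and Nampt varied together between mice of an age was looked at in 6 relations of log2 CPM. In young mice the Pearson r was 0.89 for Cd38 with Nampt (exact permutation p = 0.025), 0.90 for Bst1 with Nampt (exact permutation p = 0.0347) and 0.85 for Cd38 with Bst1 (exact permutation p = 0.0556), with Spearman's rho of 0.94, 0.60 and 0.66 (exact permutation p of 0.0167, 0.242 and 0.175). In aged mice r was 0.76 for Bst1 with Nampt (exact permutation p = 0.0736), 0.48 for Cd38 with Bst1 (exact permutation p = 0.328) and 0.28 for Cd38 with Nampt (exact permutation p = 0.59), with rho of 0.71, 0.14 and 0.14 (exact permutation p of 0.136, 0.803 and 0.803). After adjustment over the 6 relations none passed, and the lowest adjusted permutation p was 0.104 for r and 0.10 for rho. Without the 2 mice farthest from the median, 3 of the 6 relations changed sign and so rest on those mice, and the others kept it, at 0.94 for Cd38 with Bst1 and 0.74 for Cd38 with Nampt in young mice and 0.59 for Bst1 with Nampt in aged mice.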
